A study of Mus musculus with 8 samples.

Results

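Amino acid transporters were examined in adult bone marrow of C57Bl6 mice as 66 genes of the solute carrier families Slc1, Slc3, Slc6, Slc7, Slc36, Slc38 and Slc43, out of 24011 named genes on the arrays. Members were taken by a rule on symbols that uses no values, but the rule was chosen with earlier results of these data known. Sorted Lin+ cells, a mixture of maturing blood cells that carry lineage surface markers, were hybridised to 4 Affymetrix arrays. A further 4 arrays held HSC-enriched cells, a sort meant to concentrate blood-forming (haematopoietic) stem cells, or HSCs. The sample labels give this sort as LSK (lineage-negative, Sca-1-positive, Kit-positive), CD105-positive and CD48-negative, while the series' design text has CD150 in the place of CD105. Both groups came from adult mice of the same strain with no genotype or treatment named, and neither pooling of animals nor sex is stated. Nothing in the labels ties each sample to its own animal. The p-values therefore rest on sample-to-sample spread alone, and that spread may be technical.

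Carriers of amino acids in mammalian cells include sodium-coupled importers, sodium-independent carriers, proton-coupled exporters of lysosomes, and exchangers that trade amino acids across the membrane. The exchangers of the Slc7 family work as pairs: a light chain, which carries out transport, is held at the membrane by a heavy chain, Slc3a2 (also known as CD98 heavy chain) or Slc3a1. Amino acids that enter are used for protein synthesis, for glutathione, haem and nucleotides, and are read by the mTORC1 and Gcn2-Atf4 pathways. The rule by symbol is wider than the name. It takes in Slc6 carriers of dopamine (Slc6a3), noradrenaline (Slc6a2), serotonin (Slc6a4) and creatine (Slc6a8), the nucleobase carrier Slc43a3, and 4 genes named for lying opposite a carrier gene. Of these 4, Slc36a1os, Slc36a3os and Slc6a19os are listed by RefSeq as long non-coding RNAs and Slc7a6os as protein-coding.

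Values are log2 levels as deposited, and a difference is the HSC-enriched mean minus the Lin+ mean. Differences were tested with limma, with Benjamini-Hochberg adjustment over all 24011 genes and a threshold of 0.05, and every adjusted p below is from that test. A guide to background was set at 5.11, the 95th percentile of the values of 1091 olfactory receptor genes, since no detection calls come with the table. By this guide, 27 members were above background in both groups, 3 only in HSC-enriched cells, 4 only in Lin+ cells and 32 in neither. The sort was seen in 4 of its 5 antigens: Kit, Eng (CD105) and Slamf1 (CD150) were higher and Cd48 lower in HSC-enriched cells. Ly6a (Sca-1) was not among the genes measured. As Eng and Slamf1 were both higher, these values do not tell whether CD105 or CD150 was sorted on. All 15 measured stem cell markers were higher. All marker lists were chosen with earlier results of these data known, so their counts are a description and no independent check of the sort. Markers of mature cells were lower in HSC-enriched cells but not equally so on its arrays. The 18 neutrophil markers, of which 17 were lower, averaged 6.42 and 6.26 on HSC-enriched replicates 1 and 2, 8.66 and 8.44 on replicates 3 and 4, and 11.14 to 11.45 on Lin+ arrays, and HSC-enriched means of 2 of the 18 did not exceed the guide. The 12 erythroid markers, all lower, averaged 5.39 to 6.23 on HSC-enriched arrays and 8.41 to 9.12 on Lin+ arrays. All 12 B cell and plasma cell markers, 11 of 13 T and NK cell markers and all 10 eosinophil, basophil and mast cell markers were lower as well, and the B cell markers averaged 6.33 on HSC-enriched replicate 3 against 4.74 to 5.00 on the other HSC-enriched arrays. Of the megakaryocyte markers 4 of 9 were higher and 0 lower (limma), and of the endothelial markers 2 of 9 were higher and 1 lower.

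Promoter sequence was printed for the called members that hold a match to either of the first 2 motifs searched, since these motifs are bound by factors that respond to amino acid supply. The motifs were TGATGNAA (N is any base), the core of the amino acid response element bound by Atf4 with a C/EBP partner, CACGTG, the E-box bound by Myc and Tfeb, and AGATAA, a site of Gata factors. RefSeq promoters (250 bases before to 50 after a start, build GRCm38.p6) were found for 49 of the 66 members and 14 of the 19 called ones, 70 promoters in all, and both strands were searched. The first motif was in 5 of the 70 (7.14%) against 3.97% of all 32851 promoters, the second in 9 (12.9%) against 7.15%, and the third in 5 (7.14%) against 11.2%. By gene, matches to the 3 motifs were in 4, 9 and 4 of the 49 members, and in 2, 2 and 1 of the 14 called ones. Members that were not called thus also hold matches. Overlapping Slc7a7 promoters share a TGATGCAA site and an AGATAA site, each counted more than once among promoters. The 250 bases before the start follow, 5′ to 3′ on the strand of the gene, with the match to TGATGNAA (first pair) or CACGTG (second pair) in capitals. The Slc7a11 stretch is chr3:50443614-50443863 (minus strand), that of Slc7a7 chr14:54417945-54418194 (minus), that of Slc38a5 chrX:8271131-8271380 (plus) and that of Slc43a1 chr2:84840073-84840322 (plus).
Slc7a11: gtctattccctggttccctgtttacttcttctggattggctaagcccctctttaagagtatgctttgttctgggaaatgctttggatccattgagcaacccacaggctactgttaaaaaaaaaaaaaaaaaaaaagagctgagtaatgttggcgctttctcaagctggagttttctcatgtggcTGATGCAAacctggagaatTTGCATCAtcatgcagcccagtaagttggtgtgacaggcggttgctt
Slc7a7: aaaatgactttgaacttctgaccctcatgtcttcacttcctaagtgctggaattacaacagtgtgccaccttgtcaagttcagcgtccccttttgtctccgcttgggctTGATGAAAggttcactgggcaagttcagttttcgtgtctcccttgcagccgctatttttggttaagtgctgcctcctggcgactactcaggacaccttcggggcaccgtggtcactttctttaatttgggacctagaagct
Slc38a5: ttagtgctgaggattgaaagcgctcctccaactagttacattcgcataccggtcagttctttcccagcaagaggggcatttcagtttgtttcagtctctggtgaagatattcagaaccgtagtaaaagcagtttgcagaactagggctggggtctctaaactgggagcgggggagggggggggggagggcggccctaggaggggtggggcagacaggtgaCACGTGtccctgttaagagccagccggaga
Slc43a1: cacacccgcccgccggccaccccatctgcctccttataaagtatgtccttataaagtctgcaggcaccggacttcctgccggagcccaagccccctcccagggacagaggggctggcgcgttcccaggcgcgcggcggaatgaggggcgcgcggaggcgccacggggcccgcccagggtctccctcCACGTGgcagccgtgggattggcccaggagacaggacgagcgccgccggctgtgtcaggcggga
The Slc7a11 stretch held 2 matches in opposite orientations, 66 and 47 bases before the start. Slc7a7 has 5 promoters in the table, of which 1 is shown, and that promoter holds another match, TGATGCAA, which begins 1 base before the start and so runs past the printed stretch. A match describes these letters only and is not a measured binding site. The motifs were chosen with earlier results of these data known, so their counts are a description.

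Setting HSC-enriched beside Lin+ cells asked which carrier transcripts differ between the stem cell population and maturing marrow. Of the 66 members, 7 were higher in HSC-enriched cells (10.6% of members, against 15.5% of all genes), 12 were lower (18.2%, against 12.4%) and 47 did not pass. The 19 called made up 28.8% of members, near the 27.8% of all genes called, and the median difference was 0.04 for members and 0.02 for all genes. With a 2-fold minimum, Slc7a4, Slc6a15 and Slc7a6 were higher (4.8% of all genes met that rule) and Slc38a5, Slc7a11, Slc6a20a and Slc36a3os were lower (6.08% of all genes). The 4 arrays of a group lay entirely apart from those of the other for 19 members, 28.8%, against 28.9% of all genes. Over all 66, share and median lay close to the background of this comparison. Among the 34 members above the guide in at least 1 group, 52.9% were called, 20.6% higher and 32.4% lower, with a median difference of -0.0083. For all genes so placed these values were 45.2%, 25.3%, 19.9% and 0.08. Genes pass the guide partly through the group where they are high, so these shares are a description. In sorted bulk samples, fewer cells of a type and less RNA per cell cannot be told apart.

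**Figure D1:**
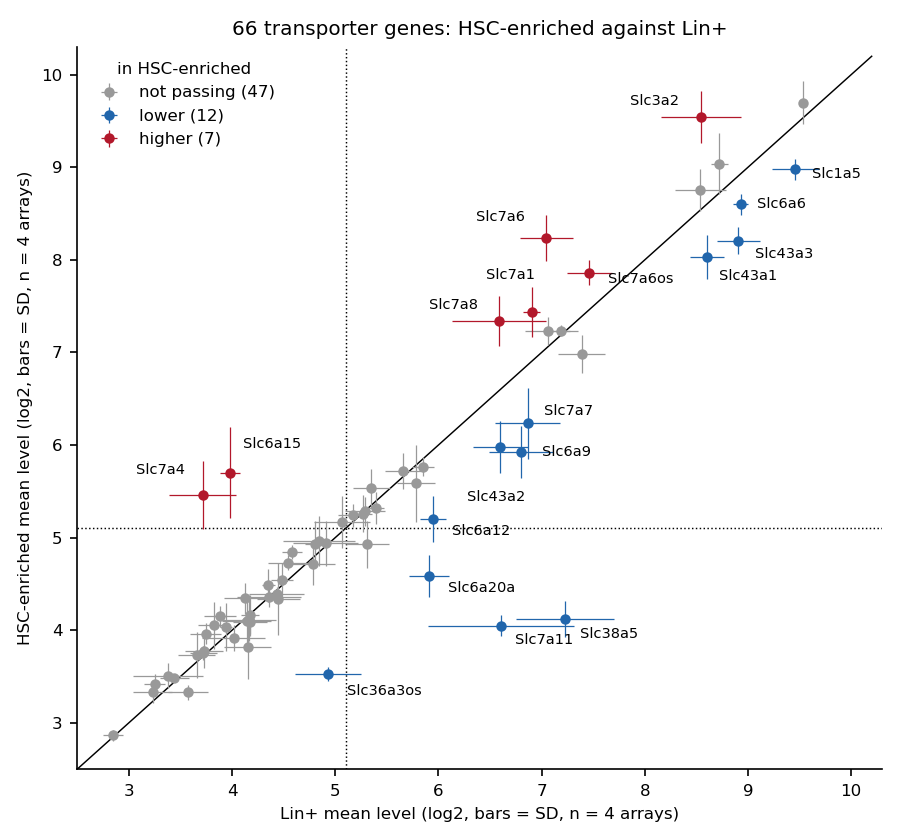
Mean log2 level of each of the 66 members in Lin+ (horizontal axis) and HSC-enriched cells (vertical axis), with bars for the SD over 4 arrays, the line of equal levels and dotted lines at the background guide of 5.11. The 7 members higher in HSC-enriched cells (red) and the 12 lower (blue) are named, and most of the 47 that did not pass (grey) lie along the line of equal levels.

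The heavy chain of the exchangers was higher in HSC-enriched cells, and its light chains went in both directions. Slc3a2 (Entrez gene 17254) was at 9.63, 9.89, 9.40 and 9.24 on HSC-enriched replicates 1 to 4 and at 8.38, 8.92, 8.81 and 8.08 on Lin+ replicates 1 to 4. All HSC-enriched arrays lay above all Lin+ arrays, with means of 9.54 ± 0.28 and 8.55 ± 0.39 (SD, n = 4), a 1.99-fold difference (difference 0.995, SE 0.20, adjusted p = 0.0040). Slc3a1, the heavy chain known from kidney and gut, was between 4.28 and 4.71 on all 8 arrays, under the guide.

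Slc7a6 (330836), which trades cationic for neutral amino acids together with sodium, was the light chain that rose most. Its levels were 8.31, 8.33, 8.44 and 7.87 in HSC-enriched cells and 7.07, 6.81, 6.92 and 7.39 in Lin+ cells. The groups did not overlap and differed 2.28-fold (difference 1.19, SE 0.16, adjusted p = 0.00028). Slc7a8 (50934), a carrier of neutral amino acids, was at 7.70, 7.36, 7.05 and 7.25 against 6.08, 6.38, 6.77 and 7.13. Lin+ replicate 4 reached the HSC-enriched range, and the rise of 1.68-fold (adjusted p = 0.029) was lost without HSC-enriched replicate 1 (adjusted p = 0.080) or 2 (0.064), without Lin+ replicate 1 (0.067) or 2 (0.080), and with the replicate number as a block (0.068).

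Slc7a5 (20539), which brings in leucine and other large neutral amino acids, did not pass. It was at 9.08, 9.46, 8.93 and 8.68 in HSC-enriched cells and at 8.71, 8.62, 8.81 and 8.75 in Lin+ cells. HSC-enriched replicate 4 fell within the Lin+ range, the difference was 0.32 (95% interval -0.03 to 0.66, adjusted p = 0.18), and without that array it was 0.44 (adjusted p = 0.049). Without HSC-enriched replicates 3 and 4 together it was 0.55 (adjusted p = 0.029). Slc7a10, a carrier of small neutral amino acids, was just above the guide in both groups, with a difference of -0.08 (95% interval -0.33 to 0.17).

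The partners that fell were Slc7a11 and Slc7a7. Slc7a11 (26570), which imports cystine in exchange for glutamate and so feeds glutathione synthesis, was at 3.93, 4.14, 3.97 and 4.15 in HSC-enriched cells, all under the guide, and at 5.63, 7.13, 7.12 and 6.55 in Lin+ cells. Every Lin+ array was higher, though with a wide spread (6.61 ± 0.71, SD, n = 4), and the difference was -2.56 (SE 0.29, adjusted p = 8.0e-05), or 5.88-fold lower. Because the lower level is at background, the Lin+ mean is better read as 2.83-fold above the guide. Its promoter, printed above, holds 2 TGATGNAA matches.

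Slc7a7 (20540), which like Slc7a6 trades cationic for neutral amino acids, was at 6.47, 6.56, 6.22 and 5.70 in HSC-enriched cells and at 6.45, 7.2, 7.0 and 6.81 in Lin+ cells. The groups overlapped through Lin+ replicate 1, and the fall of 0.63 on the log2 scale only just passed (adjusted p = 0.049). The call was lost with each array centred on its median (adjusted p = 0.067) and without any of HSC-enriched replicates 1, 3 and 4 and Lin+ replicates 2, 3 and 4 (adjusted p = 0.051, 0.096, 0.105, 0.133, 0.116 and 0.084). Without HSC-enriched replicates 3 and 4 together the difference was -0.35 (adjusted p = 0.30). The 4 light chains Slc7a9, Slc7a12, Slc7a13 and Slc7a15 were at or under the guide in both groups and did not pass.

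**Figure D2:**
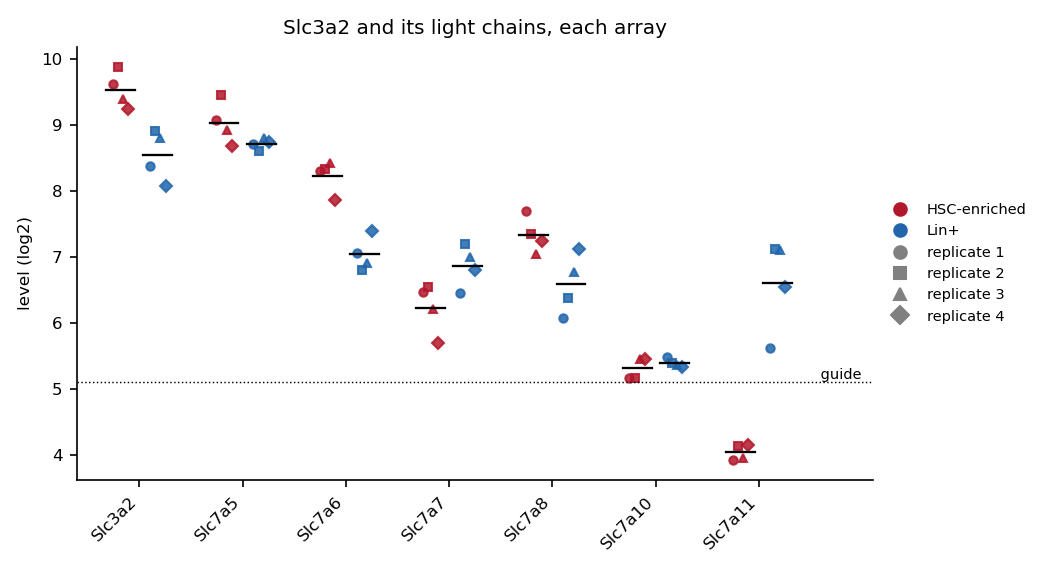
Log2 level of Slc3a2 and of the 6 light chains that pair with it on each HSC-enriched (red) and Lin+ (blue) array, with a marker shape for each replicate number, a black bar for the mean and a dotted line at the guide of 5.11. Slc3a2 and Slc7a6 are higher on every HSC-enriched array, Slc7a11 is under the guide on all 4 HSC-enriched arrays, and Slc7a5, Slc7a7, Slc7a8 and Slc7a10 overlap between the groups.

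Among the cationic amino acid carriers, 2 of 5 rose and 0 fell (limma), and 3 were under the guide in both groups. At an unadjusted p under 0.05 (limma), 3 were higher and 0 lower, with Slc7a2, under the guide, among the 3. Of all genes, 15.5% were higher and 12.4% lower, and of those above the guide in at least 1 group 25.3% and 19.9%. Slc7a1 (11987), the main importer of arginine and lysine in many cells, was at 7.14, 7.81, 7.39 and 7.41 in HSC-enriched cells and at 6.89, 6.99, 6.79 and 6.94 in Lin+ cells. The groups did not overlap, and the 1.45-fold rise passed (adjusted p = 0.015), except without HSC-enriched replicates 3 and 4 together (difference 0.57, adjusted p = 0.063). Slc7a4 (224022), a relative of these carriers whose own transport activity is not established, was at 5.88, 5.40, 5.00 and 5.57 against 4.03, 3.96, 3.42 and 3.45. All Lin+ arrays were under the guide and the HSC-enriched mean stood 1.28-fold above it, so the fitted 3.35-fold rise (difference 1.74, SE 0.21, adjusted p = 0.00011) rests on levels near background. The members under the guide were Slc7a2, Slc7a3 and Slc7a14.

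Importers of glutamine and other neutral amino acids differed gene by gene. Slc38a5 (209837), a sodium-coupled carrier of glutamine, histidine and serine, had the largest difference of all members. It was at 3.97, 4.36, 4.18 and 3.97 in HSC-enriched cells and at 6.66, 7.53, 7.03 and 7.70 in Lin+ cells. The groups lay far apart, at 4.12 ± 0.19 and 7.23 ± 0.48 (SD, n = 4), with a difference of -3.11 (SE 0.22, adjusted p = 3.2e-06), or 8.63-fold lower. The HSC-enriched arrays were all under the guide, which the Lin+ mean exceeded 4.35-fold. Lin+ replicate 1, the lowest Lin+ array for Slc38a5 and Slc7a11, was also the lowest in the erythroid (8.41), monocyte (8.02), neutrophil (11.14), eosinophil, basophil and mast cell (6.91) and megakaryocyte (5.53) markers and the highest in the B cell markers (10.08). The part of these cells in the differences was not tested. Of the 12 erythroid and 12 monocyte markers measured, 4 and 6 did not exceed the guide in their HSC-enriched means. The monocyte markers, all lower, averaged 5.05 to 5.68 on HSC-enriched arrays and 8.02 to 8.73 on Lin+ arrays.

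The other Slc38a carriers did not pass. Slc38a2 (67760), an importer of alanine and glutamine that is induced when amino acids run short, was at 9.53, 9.96, 9.82 and 9.47 against 9.49, 9.58, 9.51 and 9.55, with a difference of 0.16 (95% interval -0.11 to 0.44, adjusted p = 0.41). Slc38a1 (105727), a close relative, was at 8.54, 8.99, 8.91 and 8.58 against 8.80, 8.49, 8.22 and 8.64, a difference of 0.22 (95% interval -0.13 to 0.56, adjusted p = 0.38). Both overlapped between the groups, and the intervals reach to less than a doubling in either direction. Slc38a9, the lysosomal carrier through which arginine is sensed by mTORC1, was 6.98 ± 0.21 against 7.39 ± 0.23, and its difference of -0.41 missed the threshold (adjusted p = 0.065). It passed under 6 of 17 alternative settings, among them each array centred on its median (adjusted p = 0.044), the replicate number as a block (0.042) and leaving out Lin+ replicate 2 (-0.50, adjusted p = 0.031). The remaining 7 members of this family had differences between -0.39 and 0.22.

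Slc1a5 (20514), a glutamine importer that exchanges neutral amino acids, was lower in HSC-enriched cells. It was at 9.04, 9.10, 8.89 and 8.88 against 9.74, 9.55, 9.25 and 9.30, with no overlap and a 1.40-fold difference (adjusted p = 0.018). The call was narrowly lost without HSC-enriched replicate 3 (adjusted p = 0.051) or Lin+ replicate 2 (0.051), and without both HSC-enriched replicates 3 and 4 (difference -0.39, adjusted p = 0.15). Its relative Slc1a4 was under the guide in both groups. None of the 5 glutamate carriers of neurons and glia (Slc1a1, Slc1a2, Slc1a3, Slc1a6 and Slc1a7) passed with limma, also at an unadjusted p under 0.05, and their levels lay between 3.21 and 5.54 on all arrays.

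The 3 Slc43 carriers were all lower in HSC-enriched cells, also with arrays centred or quantile-normalized, with no overlap between groups for any of them. Of all genes, 12.4% were lower and 13% lay entirely apart and lower, and 19.9% of genes above the guide in at least 1 group were lower. Slc43a3 (58207), a nucleobase carrier, was at 8.35, 8.30, 8.13 and 8.04 against 8.75, 9.13, 8.71 and 9.05, 1.63-fold lower (difference -0.70, SE 0.13, adjusted p = 0.0022). Slc43a1 (72401), a sodium-independent carrier of large neutral amino acids whose promoter with a CACGTG match is printed above, was at 8.27, 7.84, 7.81 and 8.21 against 8.36, 8.62, 8.71 and 8.71, 1.49-fold lower (adjusted p = 0.011). Its call was lost only without HSC-enriched replicates 3 and 4 together (difference -0.55, adjusted p = 0.051). Slc43a2 (215113), its relative with similar substrates, was at 5.85, 5.77, 6.39 and 5.92 against 6.47, 6.43, 6.997 and 6.50, 1.53-fold lower (adjusted p = 0.021). Replicate 3 was the highest array in both groups for Slc43a2, and the call was lost without HSC-enriched replicate 1 (0.057), HSC-enriched replicate 2 (0.063) or Lin+ replicate 3 (difference -0.48, adjusted p = 0.051). Slc43a1 and Slc43a3 are near neighbours in the genome, with 1 annotated gene between them.

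**Figure D3:**
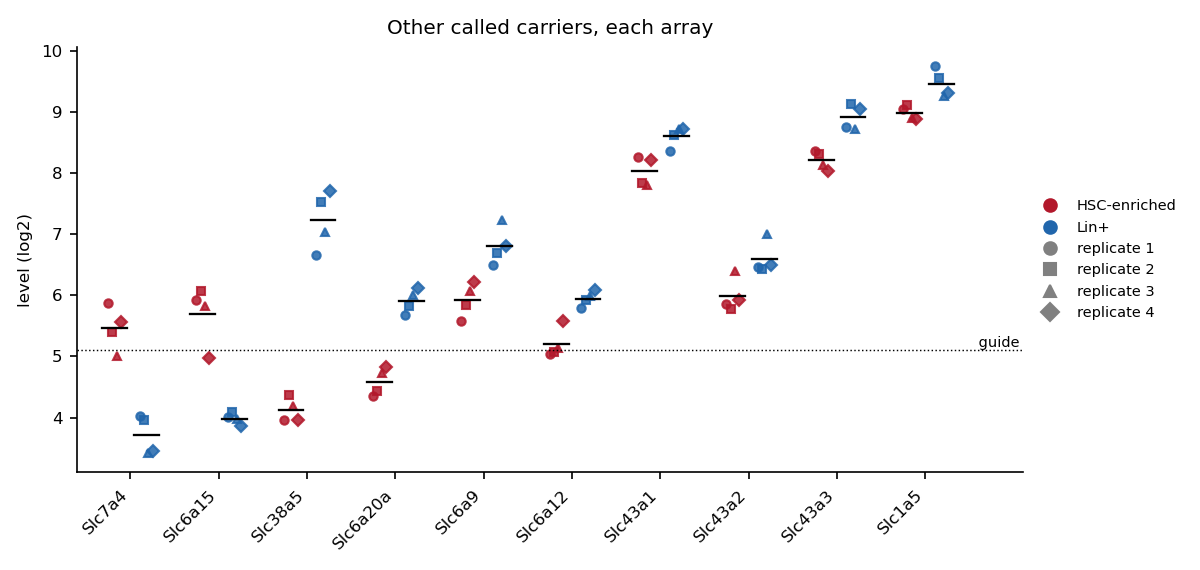
Log2 level of 10 called carriers outside the heavy and light chains on each HSC-enriched (red) and Lin+ (blue) array, with marker shapes for replicate numbers, black bars for means and a dotted line at the guide of 5.11. The groups do not overlap for any of the 10, and Slc38a5 and Slc6a20a are under the guide on all HSC-enriched arrays, as Slc7a4 and Slc6a15 are on all Lin+ arrays.

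In the Slc6 family, which is driven by sodium and chloride, 1 of 20 carriers rose, 4 fell and 15 did not pass. The share called, 25%, was near the 27.8% of all genes, and 12 of the 20 did not exceed the guide in either group. Slc6a15 (103098), an importer of branched-chain amino acids and proline best known from brain, was at 5.92, 6.08, 5.82 and 4.98 in HSC-enriched cells and at 4.01, 4.09, 3.97 and 3.86 in Lin+ cells. Replicate 4 was lower than the other HSC-enriched arrays and under the guide, as were all Lin+ arrays. The groups still did not overlap, and the difference was 1.72 (SE 0.21, adjusted p = 0.00014), or 3.29-fold, with an HSC-enriched mean 1.51-fold above the guide. Slc6a15 passed in each of the 16 alternatives that tested it.

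Of the Slc6 carriers that fell, Slc6a9 (14664) imports glycine, which red cell precursors use for haem. It was at 5.57, 5.83, 6.07 and 6.21 against 6.50, 6.68, 7.23 and 6.80, with no overlap and a 1.84-fold difference (difference -0.88, SE 0.18, adjusted p = 0.0043). Slc6a20a (102680), a proline carrier, was at 4.35, 4.44, 4.73 and 4.82 against 5.68, 5.83, 6.01 and 6.11, 2.49-fold lower (adjusted p = 5.9e-05). Every HSC-enriched array was under the guide, which the Lin+ mean exceeded 1.74-fold, so the fold of Slc6a20a rests on levels near background. Its neighbour and close copy Slc6a20b was under the guide in both groups, with a difference of -0.07, and how probes were assigned to the 2 copies is not given in the sources used here.

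Slc6a12 (14411), a carrier of betaine and GABA, was at 5.04, 5.07, 5.13 and 5.57 against 5.79, 5.92, 5.98 and 6.09, 1.67-fold lower (adjusted p = 0.0021), while the adjacent Slc6a13 was under the guide in both groups with a difference of -0.0046. The HSC-enriched mean of Slc6a12, 5.21, was close to the guide of 5.11, which its Lin+ mean exceeded 1.79-fold, so its fold rests on levels near background. Slc6a6 (21366), the taurine importer, was at 8.68, 8.68, 8.60 and 8.44 against 8.89, 8.86, 8.95 and 9.02. The groups did not overlap, but the difference was small at -0.33 (SE 0.10, adjusted p = 0.032). The call was lost in 7 of 17 alternatives, among them quantile normalization (adjusted p = 0.074), the replicate number as a block (0.099) and leaving out any of HSC-enriched replicates 3 and 4 and Lin+ replicates 3 and 4 (0.069, 0.081, 0.069 and 0.082). The carriers of dopamine, noradrenaline, serotonin and creatine did not pass, and the 15 Slc6 carriers that did not pass had differences between -0.11 and 0.27 and levels between 3.30 and 5.87.

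Of the 4 proton-coupled Slc36 carriers, 0 passed in either direction with limma, and 0 at an unadjusted p under 0.05. Slc36a1 (215335), which moves small amino acids out of lysosomes, was at 7.197, 7.08, 7.21 and 7.43 against 6.76, 7.09, 7.27 and 7.13, a difference of 0.17 (95% interval -0.13 to 0.46). Slc36a4 overlapped in the same way, with a difference of -0.19, while Slc36a2 and Slc36a3 were under the guide.

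Of the 4 genes named for the opposite strand, Slc36a3os was lower in HSC-enriched cells and Slc7a6os higher. Slc36a3os (102634079) was at 3.42, 3.54, 3.54 and 3.59 against 4.81, 5.39, 4.66 and 4.86, a difference of -1.41 (adjusted p = 5.9e-05) with both means under the guide. Slc36a3, which it adjoins, did not pass (difference -0.11, adjusted p = 0.71). Slc7a6os (66432), next to Slc7a6, was at 7.90, 7.86, 7.68 and 8.01 against 7.73, 7.46, 7.19 and 7.47. It overlapped between the groups, and its difference of 0.40 (adjusted p = 0.044) lost its call in 7 of 17 alternatives: without any of HSC-enriched replicates 1, 2 and 4 and Lin+ replicates 2, 3 and 4 (adjusted p = 0.083 to 0.113) and without both HSC-enriched replicates 3 and 4 (0.112). The table states neither probe sequences nor strands, so signal of such genes and of the carriers they adjoin cannot be told apart.

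**Figure D4:**
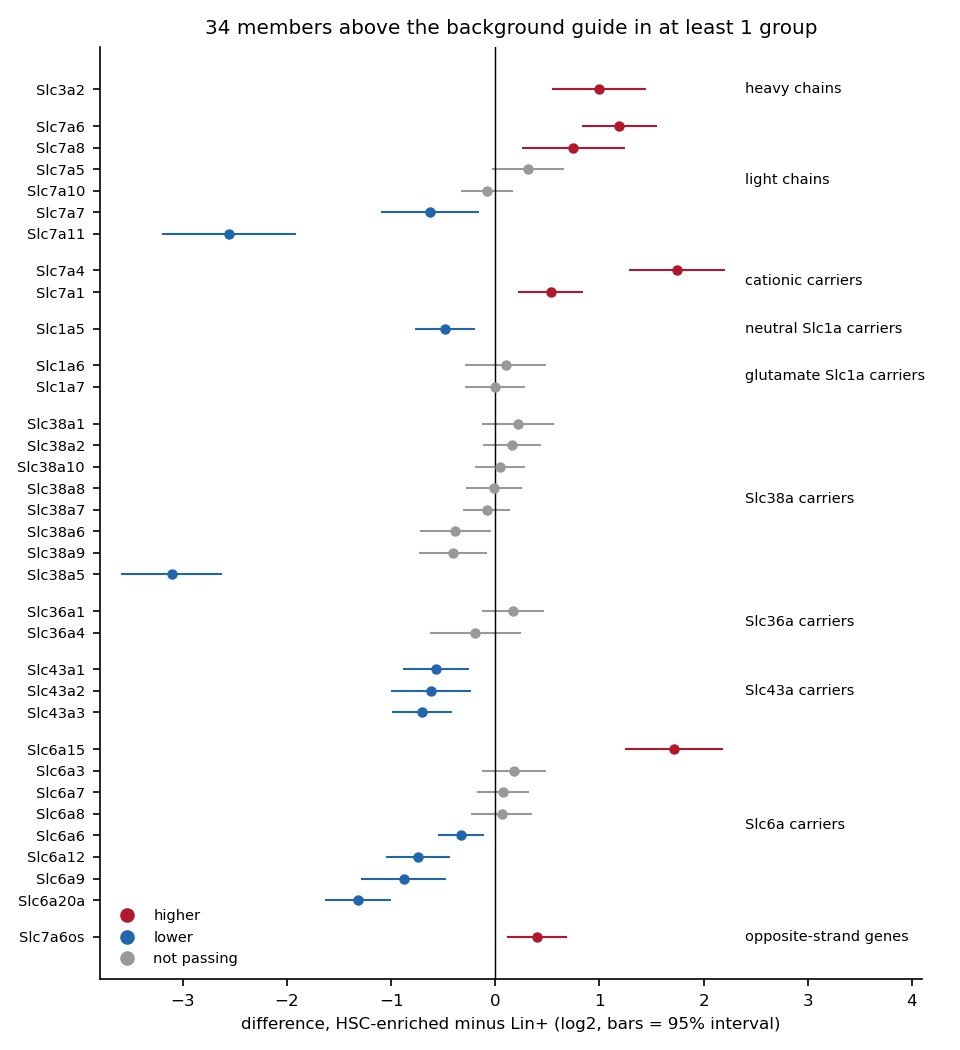
Difference in log2 level (HSC-enriched minus Lin+) with its 95% interval for the 34 members above the guide in at least 1 group, arranged by role, with higher calls in red, lower calls in blue and members that did not pass in grey. The Slc43 carriers all lie left of 0, light chains lie on both sides from -2.56 to 1.19, and most Slc38a carriers have intervals that span 0.

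HSC-enriched replicates 3 and 4 had more neutrophil marker RNA than replicates 1 and 2, and the called members were set beside that split. The 12 lower members averaged 6.08, 6.14, 6.14 and 6.13 on HSC-enriched replicates 1 to 4, against 6.98, 7.36, 7.30 and 7.29 on Lin+ replicates 1 to 4. The 7 higher members averaged 7.50, 7.53, 7.26 and 7.19 on HSC-enriched arrays and 6.27 to 6.37 on Lin+ arrays. Single lower members moved in both directions beneath this average: Slc6a9 and Slc6a20a were higher on HSC-enriched replicates 3 and 4 than on replicates 1 and 2, and Slc7a7 was lower. The average of the higher members was lower on replicates 3 and 4, and the part of the neutrophil RNA in these values was not tested. The gap between groups follows from the calls and is no result. Without HSC-enriched replicates 3 and 4, 6 members were higher and 10 lower, against 7 and 12 with all arrays. Calls also fell over all genes, to 3152 higher and 2392 lower from 3716 and 2969, so fewer calls are not particular to the members. Slc43a1, Slc6a6, Slc7a1, Slc7a7, Slc1a5 and Slc7a6os then lost their calls, and Slc38a9, Slc7a5 and Slc6a19os gained one. Slc6a19os, under the guide in both groups, had a difference of -0.61 there (adjusted p = 0.028) and -0.33 with all arrays (adjusted p = 0.23). Only HSC-enriched replicates 1 and 2 remained in that setting, and the part of the smaller number of arrays in the lost calls was not tested. With all arrays and then in that setting, differences were 0.53 and 0.57 for Slc7a1 and 0.40 and 0.42 for Slc7a6os. They were -0.57 and -0.55 for Slc43a1, -0.63 and -0.35 for Slc7a7, -0.48 and -0.39 for Slc1a5, and -0.33 and -0.25 for Slc6a6.

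Genes that act with the carriers were taken from 7 lists, chosen with earlier results of these data known. Shares called are over all measured genes of a list. Of all genes tested, 27.8% were called, 15.5% higher and 12.4% lower. Of all genes above the guide in at least 1 group, 45.2% were called. Among 22 other carriers of amino acids and peptides, 3 rose and 6 fell (40.9% called, median difference -0.16). Slc15a3, a lysosomal carrier of histidine and small peptides, was 5.82 ± 0.27 against 8.76 ± 0.25 (SD, n = 4), 7.68-fold lower (adjusted p = 8.9e-07), and Slc16a10, a carrier of aromatic amino acids, was 3.57-fold lower (adjusted p = 1.9e-06). The mitochondrial carriers Slc25a13 (aspartate and glutamate) and Slc25a15 (ornithine) rose 1.94-fold and 1.54-fold (adjusted p = 0.00035 and 0.0067). Slc25a12, the relative of Slc25a13, did not pass (difference -0.17).

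Of 37 genes of lysosomal amino acid sensing, which place mTORC1 on the lysosome through Rag GTPases, 5 rose and 8 fell (35.1% called, median -0.01). Castor2, of the arginine sensor family, rose 1.87-fold (adjusted p = 0.0060), and Lamtor4, a subunit of the lysosomal anchor of the Rag GTPases, fell by 0.997 on the log2 scale (adjusted p = 3.8e-05). Rragb was higher (1.501, adjusted p = 0.0061) and Rragd lower (-1.19, adjusted p = 1.8e-05), both with group means under the guide. Lamtor2 missed the threshold (-0.35, adjusted p = 0.11), and passed without HSC-enriched replicate 1 (-0.48, adjusted p = 0.017). Without Lin+ replicate 2, 3 genes of this list rose, and without Lin+ replicate 3 or without HSC-enriched replicates 3 and 4 together, 5 fell.

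In the amino acid response, where the kinase Gcn2 senses uncharged tRNA and raises Atf4, 8 of 28 genes rose and 5 fell (46.4% called, median 0.09). Vldlr (2.70-fold) and Vegfa (2.33-fold) rose most and Gadd45a (3.71-fold) and Mthfd2 (2.29-fold) fell most, with adjusted p = 0.00016, 0.0052, 5.7e-05 and 0.00014. All Lin+ arrays of Vldlr were under the guide and its HSC-enriched mean was 5.41, so its fold rests on levels near background. Atf3 did not pass (0.76, adjusted p = 0.29). The genes that name the pathway, chosen after their values were seen, were Eif2ak4, which encodes Gcn2, at 7.44 ± 0.14 against 6.44 ± 0.22 (adjusted p = 0.00022), and Atf4, at 11.71 ± 0.19 against 11.33 ± 0.14 (adjusted p = 0.047). The Atf4 call was lost in 10 of 17 alternatives, among them array centring (0.074), the replicate block (0.060) and leaving out any array other than HSC-enriched replicate 3 and Lin+ replicate 2 (0.061 to 0.126). Asns, the asparagine synthetase gene and a usual target of Atf4, did not pass (-0.20, adjusted p = 0.34). Without Lin+ replicate 3, and without HSC-enriched replicates 3 and 4 together, 3 genes of this list fell.

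Enzymes that use the carried amino acids were counted in 4 lists. Of 16 genes of glutamine, glutamate and proline metabolism, 5 rose and 1 fell (37.5% called, median 0.06). Glul, glutamine synthetase, was 11.05 ± 0.06 against 9.94 ± 0.05, 2.17-fold higher (adjusted p = 7.9e-06), and Gpt2, a mitochondrial alanine transaminase gene, rose 1.98-fold with both means under the guide (adjusted p = 0.00063). Got1, the cytosolic aspartate transaminase gene, fell 1.46-fold (adjusted p = 0.034) and Glud1 did not pass (0.05). The fall of Got1, the only one in this list, was lost with quantile normalization (adjusted p = 0.063), and without HSC-enriched replicate 1 (0.084) or 2 (0.094) or Lin+ replicate 2 (0.065), 3 (0.094) or 4 (0.064). Of 20 genes of branched-chain amino acid breakdown, 7 rose and 1 fell (40% called, median 0.16). Bckdhb, a subunit gene of the branched-chain keto acid dehydrogenase, and Aldh6a1 rose 2.21-fold and 1.99-fold (adjusted p = 0.00021 and 0.0054), Bcat1, the cytosolic transaminase gene, fell 1.66-fold to a mean under the guide (adjusted p = 0.00071), and Dld did not pass (0.08).

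Of 19 cytosolic aminoacyl-tRNA synthetases, which load amino acids onto tRNA, 6 rose and 0 fell with limma (9 and 0 at an unadjusted p under 0.05; 31.6% called, median 0.27). Eprs and Kars rose 1.96-fold and 1.67-fold (adjusted p = 8.9e-05 and 0.00014), and Nars did not pass (0.18). Of 21 arginine and polyamine genes, 3 rose and 4 fell (33.3% called, median 0.02). Srm, spermidine synthase, and Prmt1, an arginine methyltransferase gene, rose 2.05-fold and 1.57-fold (adjusted p = 0.00017 and 0.0030). Arg2, mitochondrial arginase, fell 4.21-fold and Azin1, an antizyme inhibitor gene, 1.89-fold (adjusted p = 1.3e-05 and 0.00024), while Oaz1 did not pass (-0.15). For comparison, 45.2% of all genes above the guide in at least 1 group were called, and most genes of these lists were above it.

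**Figure D5:**
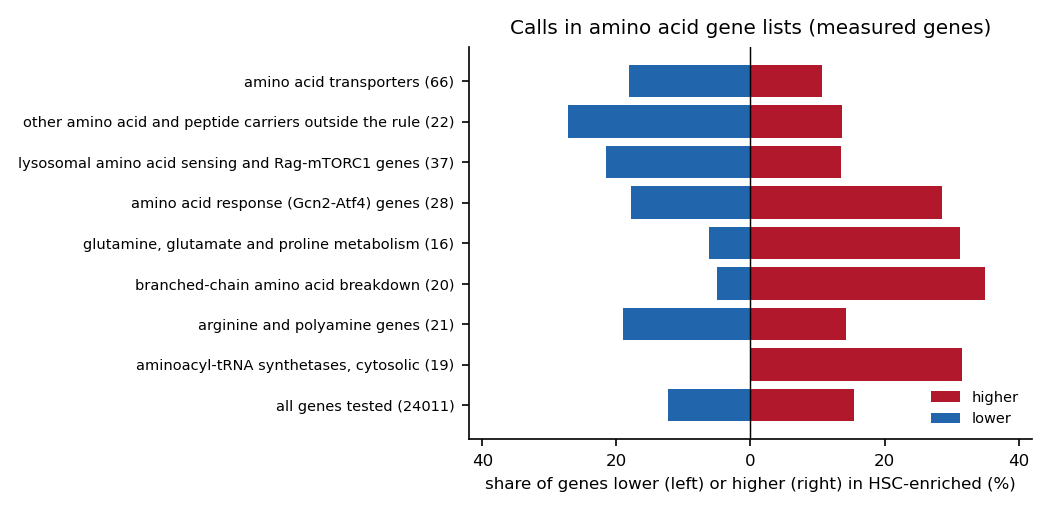
Share of measured genes called higher (red, right) or lower (blue, left) in HSC-enriched cells for the 66 transporters, the 7 lists and all 24011 genes, with the number of genes in brackets. The transporters have 10.6% higher and 18.2% lower, and the aminoacyl-tRNA synthetases have no lower call.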

How the data were processed

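RNA was extracted with the RNeasy Plus Micro kit, amplified with an Ovation Pico system and hybridised to Affymetrix mouse gene arrays (1.0st and 2.0st are both named), per the labels' protocols. RMA and Partek are named in the submitters' processing notes, without versions. The deposited values were read as log2 RMA levels from their range of 1.66 to 13.1, and array medians were 5.22 to 5.33. The probe set definition is not given in the sources used here.

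Of 24973 probe sets, 24015 had 1 gene symbol, 0 had several and 958 were unnamed. RefSeq (GRCm38.p6) matched 23922 by Entrez ID, and 4 dimmer second probe sets were left out. Groups were compared with limma 3.58.1 (lmFit, eBayes) in R 4.3.3 on all 24011 genes, without a filter, over 4 arrays per group, whose number limits the precision. The fit was tested on simulated data.

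The members, lists, markers and motifs were chosen with earlier results of these data known. Members that passed, changed at least 2-fold and had a group mean above the guide were given in full, with the 3 brightest that did not pass, and values of the other called members were added. In each list, up to 2 genes per direction and the brightest that did not pass were named. Alternatives were centring, quantile normalization, filters on low values (40th percentile or median), averaging of probe sets, trend with robust estimates, array weights, a replicate block, and leaving out each array and HSC-enriched replicates 3 and 4 together. Tables and plots were made in Python 3.11.15 with pandas 2.3.3 and matplotlib 3.10.9.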

Additional observations from a re-analysis of the deposited data

Results flagged for a closer look

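For 22 members (the 19 called and the 3 brightest that did not pass), 44 groups of 4 arrays were screened for a single array far from the other 3, which chance gives in about 1 in 20 groups, and 2 were found. Slc43a2, a carrier of large neutral amino acids, was at 6.997 on Lin+ replicate 3 and at 6.43 to 6.50 on the other Lin+ arrays. Slc6a12, the betaine and GABA carrier, was at 5.57 on HSC-enriched replicate 4 and at 5.04 to 5.13 on the other HSC-enriched arrays, which lie at about the background guide. Without Lin+ replicate 3, Slc43a2 had a difference of -0.48 (limma, adjusted p = 0.051).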

How the results depend on the processing

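Across 17 alternatives, 11 of the 19 called members passed wherever they were tested and 8 lost the call at least once (Slc43a1, Slc43a2, Slc6a6, Slc7a1, Slc7a7, Slc7a8, Slc1a5 and Slc7a6os). Leaving out 1 array gave 5 to 7 higher and 9 to 12 lower members, 29 to 33 higher and 17 to 25 lower list genes (35 and 24 with all arrays), and 3233 to 3640 higher and 2688 to 2933 lower genes in all. The 40th percentile and median filters kept 39 and 29 members. Of 69 genes followed singly, 50 kept direction and side, 13 changed side and 6 reversed; the 6 that reversed did not pass. Without HSC-enriched replicates 3 and 4 together, Slc36a4 was 0.093, Slc6a7 -0.025 and Slc6a8 -0.063, and with array weights Slc1a7 was 0.011. Leaving out 1 array gave -0.096 to 0.063 for Slc38a8, -0.0048 to 0.16 for Slc6a8, -0.023 to 0.23 for Slc1a6 and -0.099 to 0.071 for Slc1a7. The cause was not tested. A filter at the median left 0 lower branched-chain genes and 5 higher arginine and polyamine genes, and without HSC-enriched replicates 3 and 4 together 2 glutamine, glutamate and proline genes were lower.

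Same-numbered arrays of the groups had deviations correlated at -0.15, 0.06, 0.03 and -0.10, and 3 of 8 arrays correlated best with their own number. The labels do not say that these arrays are paired, and so few arrays cannot settle whether they are. With the replicate number as a block, 6 members were higher and 12 lower, 30 and 20 list genes, and 3379 and 2743 genes in all. The median difference of all genes was 0.01 with centring and 0.04 with quantile normalization. For the 32 members at or under the guide, signal near background limits what a difference shows.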
